A study of Mus musculus with 16 samples.

Results

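Matrix metalloproteinases and their tissue inhibitors were described in the immune and residual stromal cells of mouse B16 melanoma tumours, as 8 genes (Mmp8, Mmp9, Mmp12, Mmp13, Mmp14, Mmp19, Timp1 and Timp2) of the 32285 genes counted. They were found by gene symbol in each of the 8 single-cell libraries. C57BL/6J mice received 1000000 Bro4.1 B16 cells under the skin, either control or B2m-null, that is, without the light chain of MHC class I. Treatment was 100 µg of anti-CD40 or of an isotype control (rat IgG2a), injected intraperitoneally on day 6, day 9 and day 12, with harvest on day 14. CD40 is a receptor of macrophages, dendritic cells and B cells that T cells engage through its ligand. The sample labels write the genotype as if it were the mouse's, while the design text places the loss of B2m in the implanted cells, and the design text was followed here.

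Cells were positively selected with CD45 beads, so the fibroblasts, endothelial cells and melanoma cells in the libraries are those that came through this selection. Mice were marked with hashtag antibodies and pooled, and 16 mice could be told apart: of those with control tumours, 5 had received isotype and 2 anti-CD40, and of those with B2m-null tumours 5 and 4. The 2 control mice under anti-CD40 came from 1 pool loaded on 2 lanes, so each statement on that group rests on 2 mice. A lane held 45985739 to 99264875 UMIs, with a median of 1715 to 4225 UMIs per barcode. A hashtag was assigned to 27.9% of barcodes in the first B2m-null isotype lane, to 61.8% in the first B2m-null anti-CD40 lane and to 76.7% to 90.7% in the other 6 lanes. Pairs of lanes shared between 20 and 57 barcodes, at most 0.542% of the smaller lane. After filtering, 91615 cells were kept, among them 35913 macrophages, 12586 monocytes, 1144 neutrophils, 912 fibroblasts, 1436 melanoma cells and 234 endothelial cells. Levels are given as CPM, the gene's UMIs summed over the cells of 1 kind in a mouse or lane, divided by all UMIs of those cells and multiplied by 1000000.

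Matrix metalloproteinases are zinc-dependent proteases that are made as inactive proenzymes and cut collagens, elastin and many secreted and cell-surface proteins. Mmp8 and Mmp13 are collagenases, Mmp12 is the macrophage elastase, Mmp9 is a gelatinase that neutrophils store in granules and osteoclasts secrete, and Mmp14 is anchored in the plasma membrane, where it cuts collagen and activates other proenzymes. Timp1 and Timp2 are secreted inhibitors that block the active site of these enzymes, and Timp2 also takes part in the activation of pro-Mmp2 by Mmp14.

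The genes for Mmp13, Mmp12 and Mmp8 lie in 1 run of metalloproteinase genes on mouse chromosome 9 (GRCm38.p6): Mmp13 at chr9:7272514-7283333, Mmp12 at chr9:7344397-7360461, which starts 71.9 kb further on, and Mmp8 at chr9:7558429-7568486, which starts 285.9 kb from the Mmp13 start. The other members lie apart, Mmp9 at chr2:164940326-164955850, Mmp19 at chr10:128790910-128800827, Timp2 at chr11:118301061-118355411, Mmp14 at chr14:54431598-54442456 and Timp1 at chrX:20870166-20874737. Because these 3 genes were called together between genotypes within macrophage clusters 3 and 4, described further on, the 250 bases before their RefSeq starts are shown here. Sequences are from RefSeq on GRCm38.p6, on the plus strand and 5′ to 3′, for Mmp13 from chr9:7272264-7272513, for the downstream of 2 Mmp12 starts from chr9:7347124-7347373 and for Mmp8 from chr9:7558179-7558428. Capitals mark matches to an AP-1 motif (TGANTCA, its own reverse complement) and to a TATA box (TATAAA, searched on both strands).
Mmp13: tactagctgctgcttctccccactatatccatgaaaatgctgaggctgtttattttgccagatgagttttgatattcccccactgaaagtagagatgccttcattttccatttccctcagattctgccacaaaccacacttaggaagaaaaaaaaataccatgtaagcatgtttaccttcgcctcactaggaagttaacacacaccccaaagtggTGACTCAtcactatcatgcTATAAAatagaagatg
Mmp12: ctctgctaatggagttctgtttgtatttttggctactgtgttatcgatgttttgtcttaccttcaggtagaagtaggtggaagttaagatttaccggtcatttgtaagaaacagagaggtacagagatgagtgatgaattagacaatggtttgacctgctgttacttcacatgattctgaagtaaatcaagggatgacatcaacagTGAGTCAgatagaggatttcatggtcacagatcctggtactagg
Mmp8: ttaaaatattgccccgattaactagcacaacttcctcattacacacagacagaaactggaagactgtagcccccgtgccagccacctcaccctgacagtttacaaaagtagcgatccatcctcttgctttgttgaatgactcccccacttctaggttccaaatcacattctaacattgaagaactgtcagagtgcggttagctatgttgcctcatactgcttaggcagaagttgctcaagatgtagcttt
The Mmp13 stretch held TGACTCA from 35 to 29 bases before the start and TATAAA from 16 to 11 bases before it. The Mmp12 stretch held TGAGTCA from 44 to 38 bases before the start, and the Mmp8 stretch held neither motif. The 250 bases before the other Mmp12 start, at the annotated start of the gene (chr9:7344147-7344396, not shown), also held neither. Of the 32851 promoter windows of 250 bases searched, 2217 (6.75%) held the AP-1 motif and 4063 (12.4%) held the TATA box. A match describes the letters only. A promoter entry was found for 6 of the 8 members, the other 2 being Mmp9 and Mmp19.

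Mmp12 and Mmp13 were highest in macrophages of cluster 5, a cluster led by Arg1, Cxcl3 and Hmox1. Mmp9 was highest in cluster 23, a small cluster with 5 of 5 osteoclast-type markers, and then in neutrophils. Mmp8 was highest in neutrophils, Timp2 in cluster 4, macrophages led by Lyve1, Retnla and Cbr2, and Timp1, Mmp14 and Mmp19 in the fibroblast cluster over all groups together. Cluster 23 entered this order only through a B2m-null mouse under anti-CD40 with 68 of its cells. The clusters were made without the Mmp and Timp genes, so that these levels took no part in them.

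**Figure D1:**
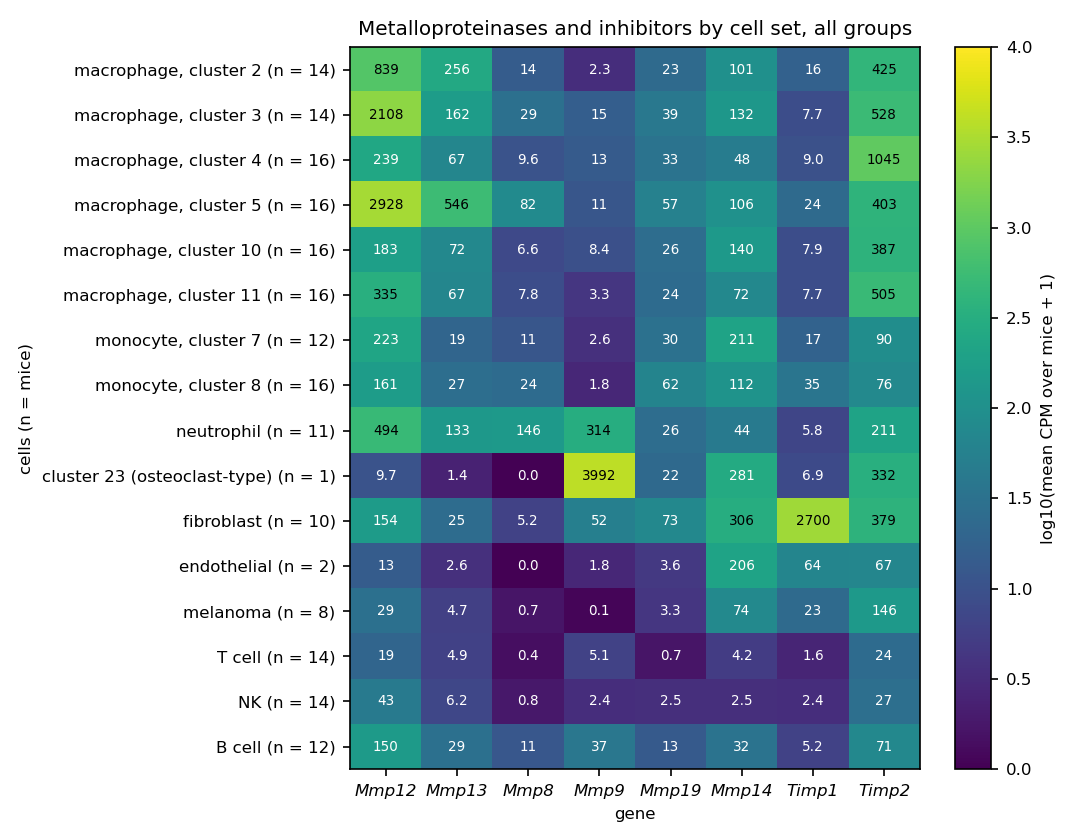
Mean level of each member (columns) in macrophage and monocyte clusters, neutrophils, cluster 23, stromal and tumour cells and lymphocytes (rows), in CPM over the mice with at least 20 such cells, all 4 groups together. Colour gives log10(CPM + 1) and the number in each box the mean. The row of cluster 23 holds the 1 mouse with at least 20 such cells. Mmp12 reached 2928 CPM in cluster 5, Timp1 2699.8 CPM in fibroblasts and Timp2 1045 CPM in cluster 4.

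The Mmp12 level was 2928 ± 890.0 CPM (SD, n = 16 mice) in cluster 5 and 2108 ± 1372 CPM (n = 14) in cluster 3, macrophages led by Saa3, Gpnmb, Nos2 and H2-M2. It was 839 ± 292 CPM (n = 14) in cluster 2, macrophages with interferon-response genes such as Rsad2, and 183 to 335 CPM in the mean of macrophage clusters 4, 10 (led by Ccl8 and C1q genes) and 11 (led by Igf1, Slc40a1 and Gas6). The ranges of clusters 5 and 3 over mice overlapped (1284 to 4486 and 660.4 to 6206 CPM), so that these neighbours in the order did not differ beyond their spread. In T cells, a cell type not known for macrophage elastase, the mean was 19.4 ± 11.7 CPM (n = 14), and levels near it are read as background.

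Mmp13 was also highest in cluster 5 (546 ± 285 CPM, n = 16), followed by cluster 2 (256 ± 110.1 CPM, n = 14) and cluster 3 (162 ± 83.3 CPM, n = 14), while T cells were at 4.92 CPM. Over all 35913 macrophages, 34.1% of cells had a UMI of Mmp12 and 19.3% one of Mmp13, against 3.70% and 0.834% of the 18943 T cells, with medians of 4074 and 1719 UMIs per cell. With each cell thinned to 2000 UMIs, these shares were 29.5% and 14.0% in macrophages and 2.83% and 0.701% in T cells. Of the other genes of the chromosome 9 run, pooled cluster 5 cells held Mmp27 at 17.4 CPM, Mmp10 at 5.81 CPM and Mmp3 at 0.251 CPM, against 614 CPM for Mmp13, 3173 CPM for Mmp12 and 98.1 CPM for Mmp8. Mmp3, a stromelysin, reached 351 CPM in the fibroblast cluster. The cluster that was highest thus differed among genes of 1 run.

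Mmp8, first described as the neutrophil collagenase, was at 146 ± 90.1 CPM in neutrophils (n = 11 mice with at least 20 neutrophils) and at 82.0 ± 49.9 CPM in cluster 5 (n = 16). These levels overlapped, with 39.1 to 295 CPM in neutrophils and 14.9 to 202 CPM in cluster 5. Mmp9 was at 314 ± 152 CPM in neutrophils, at 8.80 ± 10.2 CPM in macrophages (n = 16) and at 1.84 CPM in monocytes. T cells stood at 5.08 CPM of Mmp9, so that the monocyte level lay below that of T cells.

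Mmp14 was at 306 ± 125 CPM in fibroblasts (n = 10), 211 ± 55.7 CPM in monocytes of cluster 7 (n = 12), 139.8 CPM in macrophages of cluster 10 and 4.23 CPM in T cells. Cluster 7 was led by Ly6i, Saa3 and Nos2, and the other monocyte cluster, cluster 8, was led by Chil3 and Vcan and held Mmp14 at 112 CPM. Mmp19, a secreted metalloproteinase, was at 72.7 ± 33.7 CPM in fibroblasts, 62.5 ± 24.4 CPM in cluster 8 (n = 16) and 56.5 ± 38.3 CPM in cluster 5, 3 levels that overlapped in their spread.

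Timp1 was highest in fibroblasts, with 2699.8 ± 1120.3 CPM (n = 10), followed by 64.0 CPM in endothelial cells (n = 2), 34.5 ± 17.5 CPM in cluster 8 and 11.7 CPM in macrophages. Timp2 ran the other way, with 1045 ± 165 CPM in macrophages of cluster 4 (n = 16), 379 CPM in fibroblasts, 88.7 CPM in monocytes and 24.3 CPM in T cells. The lowest mouse of cluster 4 (739 CPM) lay above the highest of cluster 5 (641 CPM).

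As a description, the genes whose level over 23 clusters of at least 100 cells was most like each member's were taken from 10031 genes. These clusters share libraries and differ in depth. Mmp12 was most like F7 (Pearson r = 0.936), Arg1 (0.915) and Clec4d (0.910), and Mmp13 most like Gla (0.936), AU022793 (0.927) and Por (0.915). Mmp8 was closest to Cxcl2 (0.948), Gpat3 (0.944) and Cd300lf (0.937), and Mmp9 to Rufy4 (0.867), Ctsk (0.831) and Jdp2 (0.775). Mmp14 lay closest to Cdc42ep4 (0.955), Itga5 (0.940) and Tceal8 (0.940), and Mmp19 to Lrp1 (0.963), Cxcl1 (0.963) and Pla2g4a (0.940). Of the inhibitors, Timp1 was most like Ccdc80 (0.893), Fbn1 (0.891) and Ndufa4l2 (0.882), and Timp2 most like Dennd2a (0.931), Gpt2 (0.922) and Hebp1 (0.920).

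In macrophages, Mmp9 rose with anti-CD40 in tumours of both genotypes, in control tumours through a small number of cells that also held osteoclast-type transcripts, and Mmp13 fell in control tumours. In all, 2 of 8 members were called in control tumours, where 23.1% of the 12046 genes tested were called, and 1 of 8 in B2m-null tumours, where 33.3% were, shares of 25% and 12.5% of the members. Calls are those with a Benjamini-Hochberg adjusted p under 0.05 in edgeR's quasi-likelihood test on counts summed per mouse. Under isotype, 1 member differed between genotypes (Timp2, 8.1% of genes called), and under anti-CD40 2 did (Timp1 and Mmp13, 12.9% of genes). None of the 8 was called for a difference of the anti-CD40 effect between genotypes by edgeR or by DESeq2, where edgeR called 17% of genes, and 1 member (Mmp13) had an unadjusted p under 0.05. The median log2 difference of the 8 members was -0.11 for anti-CD40 in control tumours and -0.05 in B2m-null tumours, beside -0.01 over all genes in each.

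The macrophage class had another make-up in each group. Cluster 3 held 52.0% of macrophages in control tumours under anti-CD40 (mean over mice) against 5.1% under isotype, and 14.3% against 2.2% in B2m-null tumours. Cluster 5, the cluster with the highest Mmp12 and Mmp13, held 7.7% of macrophages in control tumours under anti-CD40, 27.8% under isotype, and 27.7% and 26.2% in B2m-null tumours. Values for the class therefore hold different clusters, and values within clusters are given beside them.

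**Figure D2:**
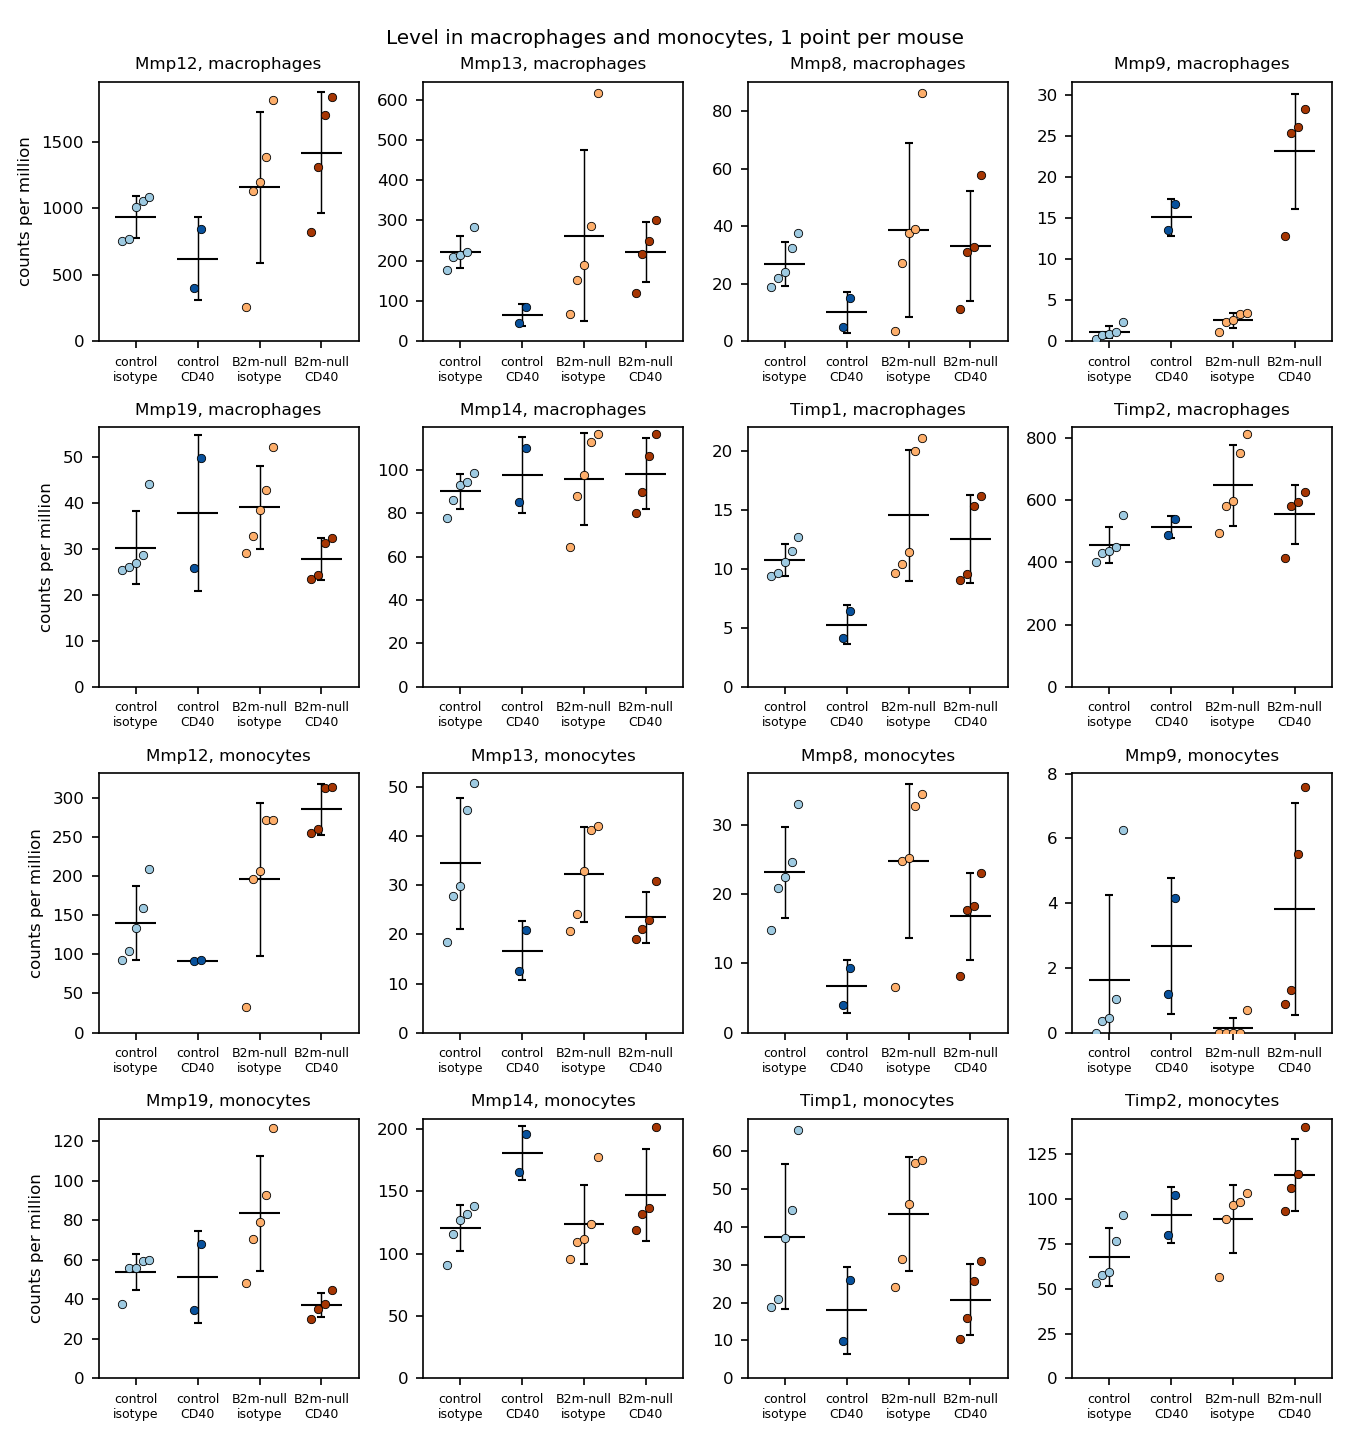
Level of each member in macrophages (upper 8 panels) and monocytes (lower 8 panels) in CPM, with 1 point per mouse, the mean as a bar and the SD as whiskers, in the 4 groups. Both anti-CD40 groups lie above both isotype groups for Mmp9 in macrophages, and the 2 control mice under anti-CD40 are the lowest group for Mmp13.

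Mmp9, the gelatinase, was at 0.796, 2.27, 1.12, 0.907 and 0.299 CPM in macrophages of the 5 control mice under isotype and at 13.5 and 16.7 CPM in the 2 under anti-CD40. The B2m-null mice were at 1.14, 3.48, 2.51, 2.33 and 3.28 CPM under isotype and at 26.1, 28.3, 12.8 and 25.4 CPM under anti-CD40. The groups did not overlap in either genotype, and the isotype levels lay near those of T cells from the same groups (2.23 and 6.57 CPM). The log2 difference was 4.08 ± 0.36 (SE, edgeR adjusted p = 7.31e-07) in control tumours and 3.33 ± 0.30 (adjusted p = 3.09e-06) in B2m-null tumours.

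These Mmp9 counts came from few cells. In control tumours under anti-CD40, 614 UMIs of Mmp9 were found in 73 of 9169 macrophages (0.796%), and the 4 highest cells, with 262, 109, 57 and 37 UMIs, held 75.7% of them. Of T cells in that group, 0.813% had a Mmp9 UMI, with no cell above 4 UMIs. When the 303 macrophages (3.30%) with 2 or more UMIs of the osteoclast-type genes Ctsk, Ocstamp and Dcstamp were left out, a choice made after seeing the data, 89.3% of the Mmp9 UMIs went with them. The level then fell from 15.9 to 1.82 CPM over the lane cells, the 2 mice were at 2.23 and 1.49 CPM beside 0.322 to 2.22 CPM in the isotype mice, and the call was lost (log2 difference 0.97, adjusted p = 0.211). Such cells were also present under isotype. In control tumours they made up 3.44% of a mouse's macrophages under anti-CD40 and 5.47% under isotype (means over mice). The shares were 7.35% and 4.95% in B2m-null tumours. A cell with more UMIs passes a fixed cut of 2 UMIs more readily. The shares were not matched for depth, so no order of the groups is read from them.

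In B2m-null tumours the call held without such cells. There, 1036 UMIs of Mmp9 were found in 258 of 7463 macrophages (3.46%) under anti-CD40, against 1.34% of T cells, and the 4 highest cells held 30.8%. Leaving out the 547 macrophages with the osteoclast-type transcripts removed 63.7% of the UMIs and took the level from 21.5 to 9.00 CPM. The 4 mice were then at 5.67 to 19.7 CPM and the 5 isotype mice at 1.23 to 3.56 CPM, with no overlap, and the log2 difference was 2.16 ± 0.37 (adjusted p = 0.000398). Between genotypes under anti-CD40, Mmp9 was not called over all macrophages (log2 difference 0.57, adjusted p = 0.218) but was called without these cells (2.56, adjusted p = 0.00385).

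**Figure D3:**
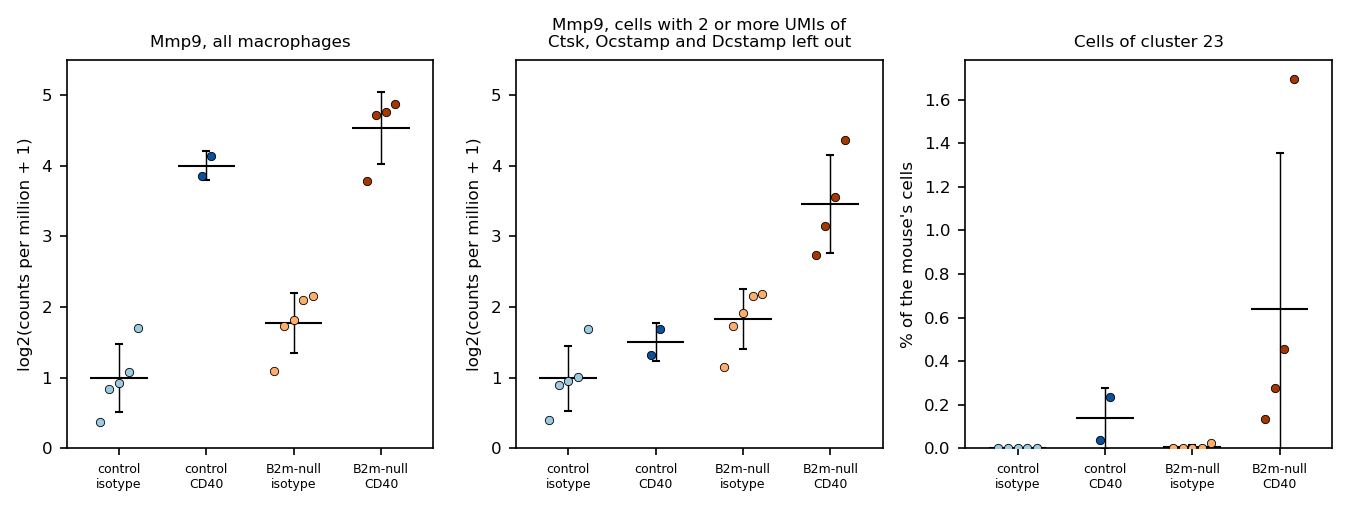
Mmp9 in macrophages as log2(CPM + 1), over all macrophages (left) and without cells holding 2 or more UMIs of Ctsk, Ocstamp and Dcstamp (middle), and cells of cluster 23 as a percentage of each mouse's cells (right). Points are mice, bars means and whiskers SD. Without these cells the 2 control mice under anti-CD40 (2.23 and 1.49 CPM) lie near the isotype level, while the 4 B2m-null mice stay at 5.67 to 19.7 CPM.

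Cluster 23, which was not part of the macrophage class, held 164 cells with a median of 9726.5 UMIs, and its leading genes included Ctsk, Acp5, Ocstamp and Dcstamp, genes of bone-resorbing osteoclasts and of cell fusion. Under anti-CD40 it had 12, 68, 9 and 10 cells in the 4 mice with B2m-null tumours and 15 and 7 in the 2 with control tumours. Under isotype, 9 of 10 mice had 0 cells and 1 B2m-null mouse had 1. A count of 0 allowed a share of up to 0.0537% to 0.425% of an isotype mouse's cells, and the 6 anti-CD40 mice had shares of 0.0396% to 1.69%, so that the lowest of them lie under these limits. Mmp9 stood at 10645 CPM in the 22 control cells and at 4141 CPM in the 141 B2m-null cells under anti-CD40, where 95.5% and 78.7% of cells had a UMI. Mmp14 stood at 267 to 376 CPM in the 4 anti-CD40 lanes of this cluster, overlapping the 189 to 273 CPM of fibroblasts in the same lanes, so that the place of fibroblasts above cluster 23 came from the isotype lanes.

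Within macrophage clusters 4, 5, 10 and 11 none of the 10 isotype mice, and 4 or 5 of the 6 anti-CD40 mice, reached the level the low-count filter asks for (10 counts in a library of median size). Mmp9 entered these fits through the anti-CD40 mice, so its levels there are given as a description. In control tumours it was at 21.97 and 48.8 CPM under anti-CD40 against 0 to 3.79 CPM under isotype in cluster 5, at 46.2 and 33.9 CPM against 0 to 0.544 CPM in cluster 10, and at 1.63 and 3.69 CPM against 0 to 0.309 CPM in cluster 11. In B2m-null tumours it was at 19.1 to 56.5 CPM against 2.19 to 9.64 CPM in cluster 4, at 5.00 to 41.5 CPM against 0 to 3.88 CPM in cluster 5 and at 4.63 to 20.6 CPM against 0 to 3.78 CPM in cluster 11, while the ranges overlapped in cluster 10 (0.676 to 36.4 and 0 to 2.52 CPM). The values of control tumours rest on few cells. In cluster 10, 1 cell held 37 of the 49 Mmp9 UMIs of the first anti-CD40 mouse and 1 cell 262 of the 280 of the second, in cluster 5 1 cell held 57 of the 59 UMIs of the second mouse, and in cluster 11 the 2 mice had 1 and 9 UMIs in all. In cluster 10, 3 of 5 control isotype mice and 4 of 5 B2m-null isotype mice had no Mmp9 UMI.

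In cluster 4, Mmp9 was at 55.4, 19.1, 22.3 and 56.5 CPM in the 4 B2m-null mice under anti-CD40, against 3.13 and 3.67 CPM in the 2 control mice. Only the 4 B2m-null mice reached the filter level there (10.2 CPM), so Mmp9 entered this fit through the group where it was high. No fold or p is given for its call, and the levels are a description. Its call is therefore not counted. The members called between genotypes there besides Mmp9 were Mmp12, Mmp13 and Mmp8, given further on, where 3.09% of 8742 genes were called. Without the cell with the most Mmp9 UMIs in each mouse, a choice made after seeing the data, the Mmp9 levels were 44.3, 15.3, 19.3 and 14.6 CPM against 2.35 and 3.00 CPM, still without overlap. In cluster 10 the B2m-null mice were at 36.4, 11.4, 0.676 and 3.26 CPM of Mmp9 and the control mice at 46.2 and 33.9 CPM under anti-CD40. Mmp9 entered that fit through anti-CD40 mice too, so no fold or p is given for its call there. No other member was called between genotypes under anti-CD40 in cluster 10, where 2.28% of genes were called. Without the highest cell of each mouse the Mmp9 levels were 4.45, 7.40, 0.338 and 0.468 CPM against 11.5 and 2.18 CPM. The groups overlapped, so that the order of the genotypes there rests on single cells.

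Mmp13, a collagenase of broad range, was at 222, 214, 285, 209 and 177 CPM in macrophages of control tumours under isotype and at 84.4 and 45.9 CPM under anti-CD40. The B2m-null mice had 190.2, 66.1, 285, 616 and 153 CPM under isotype and at 121, 216, 248 and 299.7 CPM under anti-CD40. The control groups did not overlap, and the 2 control mice were also below all 4 B2m-null mice under anti-CD40. Mmp13 fell by 1.66 ± 0.57 on the log2 scale with anti-CD40 in control tumours (edgeR adjusted p = 0.0443), and it was higher in B2m-null than in control tumours under anti-CD40 by 1.82 ± 0.59 (adjusted p = 0.0499).

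Both Mmp13 calls sat at the threshold. Among the 24 fits that each left out 1 mouse or lane, the first was lost in 14 and the second in 17, and DESeq2 gave adjusted p = 0.0525 and 0.0510. Within single clusters, the fall in control tumours was called in clusters 2 (log2 difference -1.21, adjusted p = 0.0494), 3 (-1.59, adjusted p = 0.00358) and 4 (-1.75, adjusted p = 0.00942), where 6.06%, 5.87% and 12.6% of genes were called. It was not called in cluster 5, where Mmp13 was highest: the control mice were at 471 to 668 CPM under isotype and at 281 and 194 CPM under anti-CD40 (-1.13, adjusted p = 0.150).

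Mmp12, the elastase, was at 758, 769, 1084, 1009.7 and 1058 CPM in macrophages of control tumours under isotype and at 842 and 399 CPM under anti-CD40. In B2m-null tumours the values were 1389.9, 258, 1134, 1818 and 1198 CPM under isotype and 821, 1312, 1705 and 1838 CPM under anti-CD40. The groups overlapped, and no comparison of Mmp12 was called over all macrophages. The widest was between genotypes under anti-CD40 (log2 difference 1.23, adjusted p = 0.111).

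Within 2 macrophage clusters that genotype difference was called together with those of Mmp13 and Mmp8. In cluster 3, Mmp12 was at 1014 and 660.4 CPM in the 2 control mice under anti-CD40 and at 2189, 2507, 2461 and 3075 CPM in the 4 B2m-null mice, and the groups did not overlap (log2 difference 1.74 ± 0.39, adjusted p = 0.00852). Mmp13 was at 72.4 and 45.1 CPM against 165, 316, 155 and 200.4 CPM there (1.97 ± 0.31, adjusted p = 0.000488). Mmp8 was at 17.5 and 7.04 CPM against 22.8, 51.0, 46.2 and 31.4 CPM (2.01 ± 0.28, adjusted p = 0.000109). These were 3 of the 6 members tested in cluster 3, where 6.46% of 6033 genes were called.

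Cluster 4 gave the same order. Mmp12 was at 46.9 and 48.0 CPM in the control mice and at 169.7, 149, 360.3 and 271 CPM in the B2m-null mice under anti-CD40 (2.38 ± 0.44, adjusted p = 0.00294). Mmp13 was at 12.5 and 13.7 CPM against 76.9, 26.7, 70.3 and 57.0 CPM (2.23 ± 0.42, adjusted p = 0.00393). Mmp8 was at 0 and 2.00 CPM against 9.05, 7.64, 15.7 and 10.2 CPM (3.05 ± 0.61, adjusted p = 0.00665), a level at which the control counts are close to 0. In cluster 4 Mmp12 also fell with anti-CD40 in control tumours (-1.61, adjusted p = 0.0145) and was higher in B2m-null tumours under isotype (1.30, adjusted p = 0.0369), as was Mmp13 (1.17, adjusted p = 0.04999), where 0.492% of genes were called. In cluster 5 no comparison of Mmp8, Mmp12 or Mmp13 was called.

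**Figure D4:**
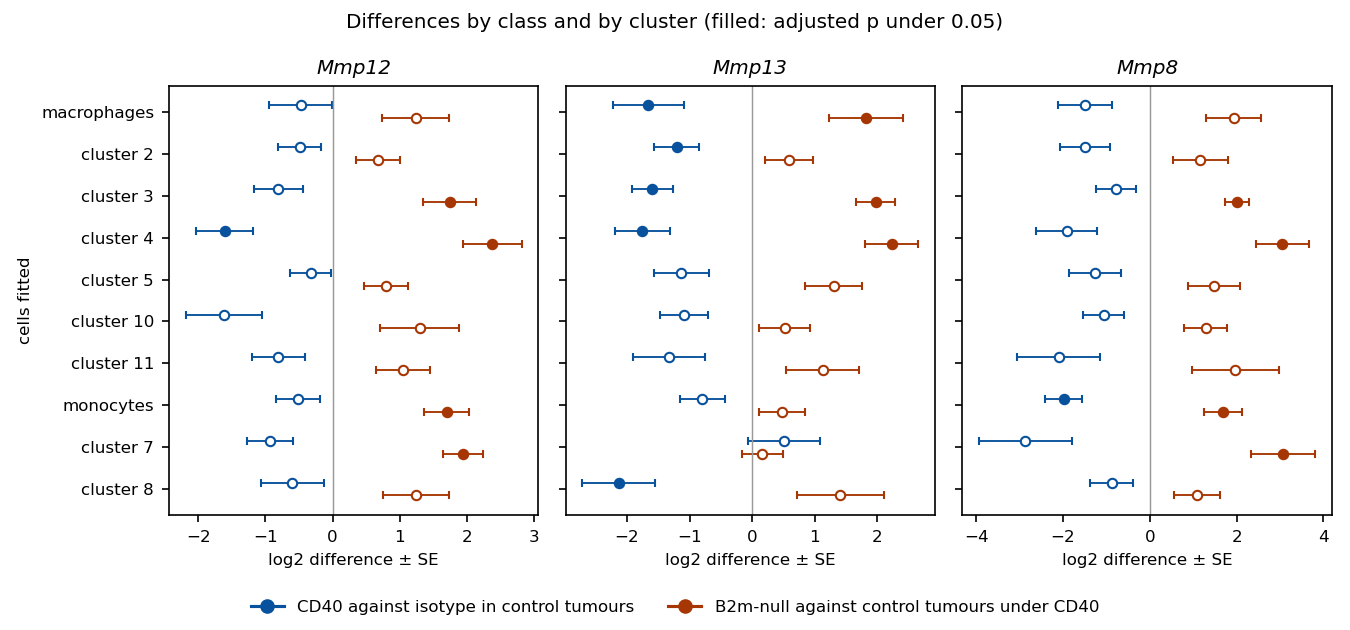
Log2 differences (± SE, edgeR) of Mmp12, Mmp13 and Mmp8 for anti-CD40 against isotype in control tumours (blue) and for the genotypes under anti-CD40, B2m-null minus control (brown), over the macrophage and monocyte classes and each of their clusters. Filled points have an adjusted p under 0.05. Both comparisons share the 2 control mice under anti-CD40, and the blue points lie below 0 but for Mmp13 in cluster 7.

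Mmp8 over all macrophages was at 18.7, 23.9, 37.5, 32.2 and 21.8 CPM in control tumours under isotype and at 15.0 and 5.03 CPM under anti-CD40. Mice with B2m-null tumours had 27.0, 3.48, 37.7, 86.1 and 38.9 CPM under isotype and at 11.2, 57.7, 32.6 and 30.8 CPM under anti-CD40. The control groups did not overlap, yet neither the difference in control tumours (log2 -1.49, adjusted p = 0.0939) nor that between genotypes under anti-CD40 (1.93, adjusted p = 0.0568) was called.

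Mmp14 and Mmp19 were not called in any of the 5 comparisons over all macrophages. Mmp14 was at 77.8 to 98.9 CPM and at 85.1 and 110.0 CPM in control tumours, and at 64.3 to 117 CPM and 80.1 to 117 CPM in B2m-null tumours, under isotype and anti-CD40 in turn. All 4 groups overlapped. In cluster 10, however, Mmp14 was at 105, 109.6, 82.5, 105 and 138 CPM in control and at 202, 156, 269, 184 and 159.5 CPM in B2m-null tumours under isotype, with no overlap (0.76 ± 0.14, adjusted p = 0.00535, 3.32% of genes called). In cluster 2 the isotype groups overlapped and Mmp14 was lower in B2m-null tumours, at 63.7 to 100.6 CPM in 3 mice against 98.5 to 122 CPM in 5 (-0.53 ± 0.16, adjusted p = 0.0470, 6.1% of genes called). Over all cells of cluster 2, the 2 control isotype lanes were at 115 and 118 CPM. By lane, Mmp14 was at 123 CPM in the first B2m-null isotype lane and at 78.3 CPM in the second, so only the second was lower. In cluster 10 it fell with anti-CD40 in B2m-null tumours to 92.6, 111, 131 and 129 CPM (-0.51 ± 0.15, adjusted p = 0.0233, 18.5% of genes called), and stood at 124 and 139 CPM in control tumours. The anti-CD40 effects differed between genotypes there (-0.96 ± 0.23, adjusted p = 0.0193), where 4.06% of 9550 genes were called.

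Timp1, the inhibitor with the lowest macrophage level, was at 9.35, 12.7, 11.5, 9.61 and 10.6 CPM in control tumours under isotype and at 4.11 and 6.43 CPM under anti-CD40. For B2m-null tumours the values were 9.66, 10.4, 21.1, 19.99 and 11.4 CPM under isotype and 16.2, 15.3, 9.04 and 9.59 CPM under anti-CD40. Under anti-CD40 the B2m-null mice did not overlap the control mice and were higher by 1.10 ± 0.31 on the log2 scale (adjusted p = 0.0268), while the difference in control tumours was not called (-0.79, adjusted p = 0.0629). The call was lost in 6 of the 24 fits without 1 mouse or lane, with the highest adjusted p (0.202) without control mouse 1 under anti-CD40. Fibroblasts hold far more Timp1, and the summed level of the 8 fibroblast markers in macrophages was 7.9 to 25.6 CPM in the B2m-null and 11.7 and 13.4 CPM in the control mice under anti-CD40. With cells holding a fibroblast marker left out, the difference was 1.06 (adjusted p = 0.0271).

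Timp2 was at 401, 449.7, 437, 430.5 and 553 CPM in macrophages of control tumours under isotype and at 598, 813, 582, 494 and 750.2 CPM in B2m-null tumours under isotype. The groups overlapped in 1 mouse each, and the difference was 0.45 ± 0.13 on the log2 scale (adjusted p = 0.0435). Under anti-CD40 Timp2 was at 539 and 488 CPM and at 626, 414, 581 and 592 CPM. The isotype call was lost in 16 of 24 fits without 1 mouse or lane and with lanes as the unit (0.40, adjusted p = 0.283). Cluster 4, where Timp2 was highest, held 26.9% of macrophages in B2m-null and 11.5% in control tumours under isotype. Within cluster 11 the genotype difference was called under isotype (0.38, adjusted p = 0.0311) and under anti-CD40 (0.60, adjusted p = 0.0276), beside 7.55% and 4.89% of genes. With anti-CD40, Timp2 was called higher in cluster 4 of control tumours (0.53, adjusted p = 0.0393) and in cluster 10 of B2m-null tumours (0.49, adjusted p = 0.00544), and Timp1 lower in the latter (-1.25, adjusted p = 0.0342).

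In monocytes, 5 of 8 members were called for anti-CD40 in B2m-null tumours if Mmp9 is counted (30.6% of 9813 genes), and 2 of 8 in control tumours (11.8% of genes). In B2m-null tumours Mmp14 and Timp2 rose and Mmp19 and Timp1 fell, and in control tumours Mmp14 rose and Mmp8 fell. The fifth call in B2m-null tumours, Mmp9, rests on a gene that entered the fit through few mice. It is not read as a result and is described by its counts. Between genotypes, 0 of 8 were called under isotype by edgeR (3.03% of genes) and by DESeq2, with 2 at an unadjusted p under 0.05, and 2 of 8, Mmp8 and Mmp12, were called under anti-CD40 (7.53%). For a difference of the anti-CD40 effects 0 of 8 were called by edgeR and by DESeq2, where edgeR called 10.7% of genes, and 3 had an unadjusted p under 0.05. The monocytes of the groups lay in different clusters: cluster 7 held 49.4% of monocytes in control and 68.2% in B2m-null tumours under anti-CD40, against 6.8% and 2.3% under isotype, with the rest in cluster 8.

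Mmp19 in monocytes was at 92.8, 79.0, 48.3, 70.5 and 126 CPM in B2m-null tumours under isotype and at 35.3, 30.2, 44.6 and 37.6 CPM under anti-CD40. These groups did not overlap, and Mmp19 fell by 1.08 ± 0.21 on the log2 scale (adjusted p = 0.000462), a call kept in each of the 33 alternatives run. In control tumours it was at 37.6, 59.3, 55.9, 55.6 and 59.7 CPM and at 67.7 and 34.8 CPM, which overlapped. Within cluster 8 alone, Mmp19 fell in B2m-null tumours (-0.85, adjusted p = 0.0129, 17.2% of genes called) and was higher in B2m-null than control tumours under isotype (0.64, adjusted p = 0.0378, 3.71% of genes). Its anti-CD40 effect differed between genotypes there (-1.13 ± 0.36, adjusted p = 0.0463, 10.2% of genes). Mmp13, not called over all monocytes, was at 18.9 to 52.5 CPM under isotype and at 7.84 and 7.50 CPM under anti-CD40 in cluster 8 of control tumours, and fell there (-2.13 ± 0.58, adjusted p = 0.0289, 5.32% of genes called). The anti-CD40 values rest on 4 and 5 UMIs, and over all cells of the 2 lanes the levels were 6.06 CPM (4 UMIs) and 20.9 CPM (13 UMIs), the second within the range of the isotype mice.

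Mmp14 was at 127, 91.1, 116, 138 and 132 CPM in monocytes of control tumours under isotype and at 166 and 196 CPM under anti-CD40, and it rose by 0.69 ± 0.18 (adjusted p = 0.0132). Mice with B2m-null tumours were at 112, 178, 124, 109.5 and 95.8 CPM and at 137, 202, 119 and 132 CPM, which overlapped, and it rose by 0.59 ± 0.16 (adjusted p = 0.00694), a call lost in 3 of 24 fits: without anti-CD40 mouse 2 of the first pool (0.38, adjusted p = 0.0536), without anti-CD40 lane 1 (0.37, adjusted p = 0.0892) and without isotype lane 2 (0.43, adjusted p = 0.189). Cluster 7 carried more Mmp14 than cluster 8 and made up more of the monocytes under anti-CD40. Within cluster 8 the log2 difference was 0.19 ± 0.21 (adjusted p = 0.683) in control and -0.17 ± 0.19 (adjusted p = 0.612) in B2m-null tumours, and within cluster 7 of control tumours it was -0.03 ± 0.21 (adjusted p = 0.974). The cluster 7 comparison in B2m-null tumours has 1 isotype mouse and is not used, and the part of the make-up of the class in these rises was not tested. In control tumours the call was lost without mouse 2 under anti-CD40 (adjusted p = 0.360) and without isotype lane 1 (adjusted p = 0.184). With cells gated by markers instead of clusters the control difference turned to -0.45.

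Mmp8 was at 14.9, 24.6, 22.5, 33.0 and 20.9 CPM in monocytes of control tumours under isotype and at 9.37 and 3.95 CPM under anti-CD40, without overlap. It fell by 1.99 ± 0.42 (adjusted p = 0.00294), and the call was lost without mouse 2 under anti-CD40 (-1.28, adjusted p = 0.332). The B2m-null mice had 25.3, 6.58, 34.5, 32.8 and 24.8 CPM under isotype and 8.14, 17.8, 18.2 and 23.003 CPM under anti-CD40, which overlapped. Under anti-CD40 Mmp8 was higher in B2m-null than in control monocytes by 1.68 ± 0.44 (adjusted p = 0.0224), lost in 4 of 24 fits, with the highest adjusted p (0.461) and a log2 difference of 0.98 without control mouse 2.

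Mmp12 in monocytes was at 160.0, 105, 209, 134 and 92.4 CPM in control tumours under isotype and at 92.7 and 91.3 CPM under anti-CD40. It was at 207, 32.9, 197, 272 and 272 CPM in B2m-null tumours under isotype and at 259.8, 256, 315 and 312 CPM under anti-CD40. The B2m-null mice under anti-CD40 lay above both control mice by 1.70 ± 0.34 on the log2 scale (adjusted p = 0.00537). Leaving out either control mouse ended the call (adjusted p = 0.0619 and 0.0807), as did taking lanes as the unit (1.57, adjusted p = 0.160). Within cluster 7 the same difference was called for Mmp12 (1.94 ± 0.30, adjusted p = 0.000443) and Mmp8 (3.07 ± 0.74, adjusted p = 0.0191), where 5.03% of genes were called. The control values of Mmp8 there rest on 1 and 3 UMIs (2.22 and 1.61 CPM), and the B2m-null mice were at 8.97, 15.8, 15.4 and 18.4 CPM. All of these lay below the level the low-count filter asks for in cluster 7 (31.4 CPM), which 1 control isotype mouse reached (42.7 CPM, 8 UMIs). In cluster 8 under anti-CD40 the genotypes overlapped for both genes. Mmp12 was at 66.1 to 296 CPM in B2m-null and at 127 and 54.0 CPM in control mice. Mmp8 was at 5.08 to 59.5 CPM and at 15.7 and 10.5 CPM.

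Timp1 was at 31.6, 46.1, 24.2, 56.9 and 57.7 CPM in monocytes of B2m-null tumours under isotype and at 10.3, 15.8, 25.7 and 31.0 CPM under anti-CD40. The groups overlapped, and Timp1 fell by 1.09 ± 0.33 (adjusted p = 0.0158). DESeq2 did not call it (-0.89, adjusted p = 0.159), and the call was lost in 5 of 24 fits without 1 mouse or lane, with the highest adjusted p (0.723) and a difference of -0.39 without B2m-null isotype lane 2. Timp2 was at 97.0, 98.7, 104, 56.5 and 88.8 CPM and at 140.5, 114, 106 and 93.3 CPM in the same groups, and it rose by 0.69 ± 0.18 (adjusted p = 0.00469), lost without isotype mouse 1 of the second pool (0.45, adjusted p = 0.0578) and without isotype lane 2 (0.41, adjusted p = 0.198). In control monocytes Timp1 was at 65.6, 44.5, 37.1, 18.9 and 20.9 CPM under isotype and at 26.0 and 9.88 CPM under anti-CD40, a difference that was not called (-1.16, adjusted p = 0.128). Timp2 was at 57.7, 59.3, 91.4, 53.5 and 76.7 CPM and at 80.2 and 102 CPM, also not called (0.53, adjusted p = 0.0952). Within cluster 7 of B2m-null tumours Timp2 was at 107 to 154 CPM in the 4 anti-CD40 mice and at 23.3 CPM (4 UMIs in 54 cells) in the 1 isotype mouse with the cells required. With 1 mouse in an arm, no call is used. Within cluster 8 of B2m-null tumours Timp2 was at 89.0, 68.0, 60.8 and 73.2 CPM under anti-CD40. The isotype mice were at 97.2, 98.7, 105.8, 57.8 and 90.1 CPM there, so the groups overlapped and no rise was seen. Cluster 8 held 97.7% of B2m-null monocytes under isotype and 31.8% under anti-CD40 (means over mice). The part of the make-up of the class in the Timp2 rise was not tested.

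Mmp9 in monocytes of B2m-null tumours was at 0 CPM in 4 isotype mice and 0.689 CPM in the fifth, and at 7.59, 5.53, 1.30 and 0.885 CPM under anti-CD40. The level the low-count filter asks for was 4.80 CPM, reached by 2 of 6 anti-CD40 mice and by 1 of 10 isotype mice, so no fold or p is given for this call. All of these levels lay near or below the level of T cells, and the 4 anti-CD40 mice had 14, 28, 4 and 2 Mmp9 UMIs. Over all monocytes of these lanes, 69 of 138 UMIs lay in 1 cell that had no assigned mouse and so took no part in these values. Of the 23 fits without 1 mouse or lane, 5 lost this call.

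Only 11 mice had the 20 neutrophils required. Mmp9 was at 137, 217 and 508 CPM in control tumours under isotype and at 523 and 320.0 CPM under anti-CD40. In B2m-null tumours it was at 361 and 157 CPM under isotype and at 244, 172, 266 and 550.0 CPM under anti-CD40. The groups overlapped, and between 34.1% and 35.3% of neutrophils had a Mmp9 UMI in each group. Mmp8 was at 39.1, 59.2 and 132 CPM and at 283 and 244 CPM in control tumours, with no overlap, and was not called (log2 difference 1.74, adjusted p = 0.144).

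Of 7 members tested in neutrophils, 0 were called for anti-CD40 in either genotype by edgeR or DESeq2, with 1 (Mmp8) at an unadjusted p under 0.05 in control and 0 in B2m-null tumours, where 1.07% of 4935 genes were called in control and 0.426% in B2m-null tumours. Mmp12 was called between genotypes under isotype, with 19.6, 29.6 and 132 CPM in control and 691 and 2051 CPM in B2m-null tumours (log2 difference 4.40 ± 0.71, adjusted p = 0.0155), the 1 gene called of 4935 (0.0203%). One B2m-null neutrophil held 449 of the 1034 Mmp12 UMIs. The macrophage genes Apoe and C1qa stood at 14.3% to 58.9% of the macrophage level in neutrophils of the 8 lanes, and 91.0% of the B2m-null isotype UMIs of Mmp12 lay in neutrophils with 3 or more UMIs of C1qa, C1qb, C1qc and Apoe. Without those cells the pooled level was 215 CPM against 63.9 CPM, and the call was lost while the fitted log2 difference stayed at 3.27 ± 1.17 (adjusted p = 0.4224). DESeq2 did not call it either (4.45, adjusted p = 0.363). Over the 25 alternatives with a value the log2 difference was 3.27 to 6.33, and the part of macrophage transcripts in it was not tested. It was also lost in 7 of 18 fits without 1 mouse or lane, with adjusted p from 0.0555 to 0.831, highest without control isotype lane 2.

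In fibroblasts, Timp1 was higher and Mmp14 lower in each anti-CD40 lane than in each isotype lane. Timp1 was at 3763 and 3849 CPM in the 2 control lanes and at 3888 and 3689.6 CPM in the 2 B2m-null lanes under anti-CD40, and at 1811 and 1459.8 CPM and at 1031 and 764 CPM in the isotype lanes. Mmp14 was at 273 and 244 CPM and at 189 and 217 CPM under anti-CD40, and at 319 and 538 CPM and at 470.3 and 457 CPM under isotype. The lanes of the 2 treatments did not overlap for either gene. With the 2 control anti-CD40 lanes summed as 1 pool, the mean over pools was 3793 ± 99.3 CPM (SD, n = 3) under anti-CD40 and 1267 ± 463 CPM (n = 4) under isotype for Timp1, a difference of 1.66 on the log2(CPM + 1) scale (exact permutation test over 7 pools, two-sided p = 0.0286, the smallest that 35 arrangements can give).

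Mmp14 was at 222 ± 36.1 CPM (n = 3) under anti-CD40 and 446 ± 92.0 CPM (n = 4) under isotype, a difference of -0.99 (exact permutation test, p = 0.0571). Mmp19 overlapped, with 76.5 to 112 CPM against 34.4 to 94.6 CPM (0.88, exact permutation test, p = 0.0857). Timp2 was at 401 ± 91.5 CPM (n = 3) and 388 ± 45.6 CPM (n = 4) and did not differ beyond the spread (0.03, exact permutation test, p = 0.857). This test was added after the levels had been seen, it was run on all 8 members, and the p-values are not adjusted. It exchanged the treatment over all pools without regard to genotype. The lanes held 42 to 173 fibroblasts each, and the summed level of the 8 fibroblast markers was 18655 to 31146 CPM under anti-CD40 and 27663 to 41836 CPM under isotype. The part of these marker levels in the Timp1 and Mmp14 differences was not tested.

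**Figure D5:**
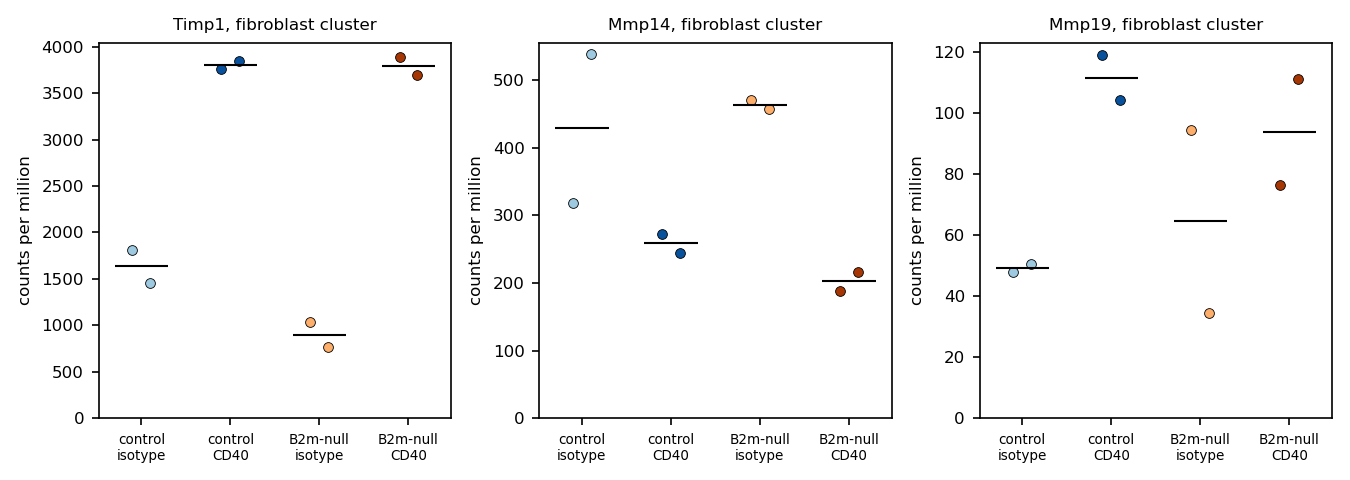
Timp1, Mmp14 and Mmp19 in the fibroblast cluster in CPM, with 1 point per lane and the mean of the 2 lanes as a bar. The 4 anti-CD40 lanes lie at 3689.6 to 3888 CPM of Timp1 and the 4 isotype lanes at 764 to 1811 CPM, and Mmp14 has the opposite order.

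Beside the members, 43 genes of matrix remodelling were followed: other metalloproteinases, inhibitors, plasminogen activators, ADAM proteases and matrix proteins. Of the 25 tested in macrophages, 2 rose and 2 fell with anti-CD40 in control tumours, and 5 rose and 5 fell in B2m-null tumours (16% and 40% of those tested, beside 23.1% and 33.3% of all genes). The gelatinase gene Mmp2 rose in both (log2 difference 3.33 ± 0.66, adjusted p = 0.0018, and 2.79 ± 0.65, adjusted p = 0.0036), and Mmp27 of the chromosome 9 run fell in both (-1.27, adjusted p = 0.0142, and -1.26, adjusted p = 0.0021). Mmp10, a stromelysin from the same run, fell in control tumours (-2.89 ± 0.80, adjusted p = 0.0153) and was higher in B2m-null tumours under anti-CD40 (3.53 ± 0.78, adjusted p = 0.0100), the order that Mmp13 had. Its level was low, at most 5.81 CPM in any pooled cluster, in cluster 5. The part of the differing cluster 5 share in these Mmp10 values was not tested. Spp1, the gene of osteopontin, was also higher in B2m-null tumours under anti-CD40 (1.64 ± 0.45, adjusted p = 0.0257).

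Of 20 such genes tested in monocytes, 1 rose and 1 fell with anti-CD40 in control tumours and 5 rose and 2 fell in B2m-null tumours (10% and 35%, beside 11.8% and 30.6% of all genes). Lcn2, whose protein binds Mmp9, rose in B2m-null monocytes (3.18 ± 0.79, edgeR adjusted p = 0.0036). It was also among the leading genes of the neutrophil cluster, and the part of neutrophil transcripts in this rise was not tested. Col1a1 (2.41 ± 0.56, edgeR adjusted p = 0.0021) and Col1a2 (1.95 ± 0.68, edgeR adjusted p = 0.0323), genes of collagen I that fibroblasts make, rose in B2m-null monocytes as well. The summed fibroblast markers stood at 11.5 to 29.4 CPM in those monocytes and at 5.2 to 26.3 CPM under isotype. This sum holds Col1a1 and Col1a2 themselves, so it is no separate measure of fibroblast transcripts. The part of such transcripts in the collagen values was not tested. Of 13 tested in neutrophils, 0 were called by edgeR in any comparison, with 1 to 3 per comparison at an unadjusted p under 0.05.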

How the data were processed

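The deposited values are UMI counts per gene and barcode from 10x 3′ v3 libraries with hashtag antibodies, which the authors made with Cell Ranger 3.0.0 and bcl2fastq 2.20.0.422 on mm10, per the submitters' processing notes. Cells with fewer than 200 genes, over 10% mitochondrial counts or 2 hashtags (8.17% of barcodes) were left out, and a hashtag call needed at least 20 hashtag counts and a posterior of 0.9. The labels' protocols state doublets by calculated rate only, and doublets of 2 cells of 1 mouse cannot be seen by hashtag. Cells were clustered with scanpy 1.11.5 (2000 variable genes without Mmp and Timp genes, 40 components, 20 neighbours, leidenalg 0.10.2 at resolution 1) into 24 clusters, which were named from markers by their level against the median of the other clusters, a choice made after seeing the data. Clusters 9, 12 and 23 stayed unnamed.

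Counts were summed per mouse with at least 20 cells of a kind, and tested across all genes with edgeR 4.0.16 (filterByExpr, TMM, quasi-likelihood, all 4 groups in 1 fit, Benjamini-Hochberg), with DESeq2 1.42.0 as an alternative. The test was checked on simulated counts. Nothing but the hashtag tells mice apart, and p-values measure the spread between those mice. The per-cluster fits, the fibroblast test and the fits without cells holding other cells' transcripts were added after seeing the data. Genes named are the 8 members, the 4 matrix-remodelling genes with the largest called change per comparison, of which the text gives some, and the 3 genes most like each member over clusters. The members and all lists were chosen with earlier results of these data known. Intervals and limits of a 0 cover counting error only, at 95% (exact Clopper-Pearson) and 3 counts.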

Additional observations from a re-analysis of the deposited data

Results flagged for a closer look

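Single mice met a criterion for standing apart in 6 of the 56 sets of values examined, each of 1 member in a group of 4 or 5 mice. The criterion was set by the gap of the outermost value relative to the group's range, and chance flags about 1 in 20 such sets. In macrophages, Mmp19 was at 44.1 CPM in 1 control isotype mouse, against 25.4 to 28.6 CPM in the other 4. In monocytes, Mmp19 was lowest at 37.6 CPM in another control isotype mouse, against 55.6 to 59.7 CPM. Mmp9 in monocytes was at 6.26 CPM in 1 control isotype mouse, against 0 to 1.05 CPM, and at 0.689 CPM (3 UMIs) in 1 B2m-null isotype mouse, where the other 4 were at 0. In neutrophils of B2m-null tumours under anti-CD40, Timp1 was at 24.4 CPM, which is 1 UMI, in the mouse with the fewest neutrophils and at 0 in the other 3. Where all other mice are at 0, any single count meets the criterion, so these 2 cases do not show a mouse that stands apart. In the same neutrophils, Timp2 was at 239 CPM in 1 mouse against 194 to 198 CPM.

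The anti-CD40 effect differed between genotypes for 2 members within single clusters. For Mmp14 in macrophages of cluster 10 the difference of the log2 effects, B2m-null minus control, was -0.96 ± 0.23 (SE, edgeR adjusted p = 0.0193). For Mmp19 in monocytes of cluster 8 it was -1.13 ± 0.36 (edgeR adjusted p = 0.0463). Both rest on 2 control mice under anti-CD40.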

How the results depend on the processing

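Mmp9 in macrophages of B2m-null tumours and Mmp19 in monocytes of B2m-null tumours stayed called in each of 33 alternatives, and Mmp9 in macrophages of control tumours in 32. The other member calls were kept in 12 to 31 of 33, fewest for Mmp13 between genotypes under anti-CD40 (12), Timp2 in macrophages (15) and Mmp13 in control tumours (17), in 25 of 31 for Mmp9 in monocytes and in 15 of 25 for Mmp12 in neutrophils. The reversal was that of Mmp14 in control monocytes, -0.45 with a per-cell marker gate in place of clusters. The cause of these changes was not tested. In macrophages, the count of members called for anti-CD40 in control tumours went from 2 to 4 without the filter on low counts and to 1 with the replicate block, and in B2m-null tumours from 1 to 2 with the gate. Between genotypes under isotype it went from 1 to 2 without the filter, with DESeq2 and with the replicate block, and to 0 with the stricter cell filter (500 genes, 5% mitochondrial counts). Under anti-CD40 it went from 2 to 1 with DESeq2, the block and the gate, and to 4 with the stricter filter. In monocytes, the count in control tumours went from 2 to 6 without the filter and to 1 with lanes as the unit, the gate and the stricter filter, and in B2m-null tumours from 5 to 3 with the stricter filter. Between genotypes it went from 0 to 2 under isotype without the filter, and under anti-CD40 from 2 to 0 with lanes and to 1 with the gate or without cells holding osteoclast-type transcripts. For the difference of the effects it went from 0 to 3 without the filter and to 1 with the block, the gate and the stricter filter. In neutrophils, it went from 0 to 1 for control tumours without the filter and with the block, from 1 to 2 under isotype without the filter and to 0 with DESeq2, the gate or without cells holding macrophage transcripts, and from 0 to 2 under anti-CD40 without the filter and to 1 with the stricter filter. Leaving out 1 mouse or lane gave 1 to 4, 1, 0 to 2, 0 to 4 and 0 to 2 members in the 5 macrophage comparisons (anti-CD40 in control and in B2m-null tumours, genotype under isotype and under anti-CD40, difference of effects), 0 to 3, 2 to 6, 0 to 1, 0 to 2 and 0 to 1 in monocytes, and 0, 0, 0 to 1 and 0 to 2 in the first 4 for neutrophils.

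Replicate numbers did not pair the mice across all groups: deviations of same-numbered samples correlated at -0.01 to 0.34, not all above 0.1. The highest values were those between the 2 B2m-null groups, at 0.32 in macrophages, 0.34 in monocytes and 0.14 in neutrophils. The main fits hold no term for the replicate. Under the gate, mean levels were 40.8 CPM for Mmp9 in macrophages (8.80 by cluster), and in monocytes 13.2 for Mmp9 (1.84), 45.5 for Mmp13 (28.8), 70.7 for Mmp14 (136) and 37.5 for Timp2 (88.7). Thinning each macrophage to 2000 UMIs lowered the share of cells with a UMI of Mmp8 from 7.55% to 4.41%, Mmp9 from 1.36% to 0.770%, Mmp12 from 34.1% to 29.5%, Mmp13 from 19.3% to 14.0%, Mmp14 from 31.4% to 17.0%, Mmp19 from 13.1% to 5.87%, Timp1 from 4.59% to 1.98% and Timp2 from 63.8% to 51.7%. Counts near 0 limit Mmp9 outside neutrophils and cluster 23, and all neutrophil values.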

Other observations

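In melanoma cells that came through the CD45 selection (8 mice with at least 20 such cells), Timp2 was at 146 ± 34.5 CPM (SD), Mmp14 at 74.3 ± 17.2 CPM and Timp1 at 23.4 ± 4.23 CPM. Mmp9 was at 0 to 0.689 CPM and Mmp8 at 0 to 3.05 CPM over these mice. No comparison between groups was made in these cells.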
